A study of Rattus norvegicus with 48 samples.

Results

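Postconditioned ischemic rat liver was compared with sham liver across all genes measured. The 10 arrays titled IPO-21 to IPO-30 and the 8 arrays titled Sham-41 to Sham-48 were taken, 18 of the 48 arrays of the series, each from 1 animal. In the IPO group the whole liver of a male Wistar rat was made ischemic for 30 min, then came 3 cycles that each paired 30 sec of reperfusion with 30 sec of clamping, and the biopsy followed after 30 min of reperfusion. Sham rats had the laparotomy and no ischemia. Rats of all groups weighed 300 to 350 g, had free access to food and water, were anaesthetized with Hypnorm (fentanyl/fluanisone) and Midazolam, and had a midline laparotomy with the hepatoduodenal ligament freed. No genotype is given beyond the strain. The biopsy came from the right lobe, and 150 ng of its total RNA was labelled for an Affymetrix whole-transcript array. The IRI rats, 10 animals with the same ischemia and reperfusion but no cycles, are used here as a side comparison. Rats that had preconditioning, alone (IPC) or with the cycles (IPC+IPO), entered the fit and are not otherwise described. IPO and sham differ in the ischemia, in the reperfusion and in the cycles together, so this comparison cannot tell these apart.

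Ischemic postconditioning is the interruption of early reperfusion by short repeated occlusions. It is studied as a way to limit the injury that returning oxygen does to a liver that has been without blood. Within minutes of reperfusion, stress kinases and calcium signals switch on immediate-early genes, whose promoters need no new protein to be activated. Many of these genes code for transcription factors of the AP-1 family, which are dimers of Jun, Fos and ATF proteins. Heat shock chaperones, antioxidant enzymes, chemokines and metabolic hormones follow.

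The immediate-early genes are read through short control elements close to the gene start. In the RefSeq promoter table (build GRCr8), 16 of the 26 AP-1 and early transcription factor genes measured had a window; its 250 bases before the gene start were searched on both strands. The cAMP response element TGACGTCA, which CREB and ATF proteins bind, was found in 3 of these windows (Ier2, Jund and Maff), or 18.8%, against 2.27% of the 12536 windows of genes on the array. The CArG box, the site of serum response factor, was also found in 3 (Egr1, Egr2 and Klf6), against 1.21% of the windows on the array. The AP-1 site TGAGTCA was in 0 of the 16 windows and in 3.49% of those on the array. Dusp1 was the gene with TGACGTCA among the MAPK phosphatases and feedback genes, where 13 of 14 genes had a window. The windows of Jund, Ier2 and Dusp1 are shown with TGACGTCA in capitals, and that of Klf6 with the CArG box in capitals, because these genes were called higher in IPO and carry the elements named. All are printed 5′ to 3′ on the strand of the gene. The Jund window is chr16:18769772-18770021 on the minus strand, that of Ier2 chr19:40399123-40399372 on the plus strand, that of Dusp1 chr10:17184603-17184852 on the plus strand and that of Klf6 chr17:69458479-69458728 on the minus strand. A match is a run of letters and shows no binding.
Jund: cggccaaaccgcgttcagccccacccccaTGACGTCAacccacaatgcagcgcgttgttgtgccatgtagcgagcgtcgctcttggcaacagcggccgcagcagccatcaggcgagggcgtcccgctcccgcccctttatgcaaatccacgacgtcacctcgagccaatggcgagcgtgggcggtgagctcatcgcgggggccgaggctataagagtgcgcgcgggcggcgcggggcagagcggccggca
Ier2: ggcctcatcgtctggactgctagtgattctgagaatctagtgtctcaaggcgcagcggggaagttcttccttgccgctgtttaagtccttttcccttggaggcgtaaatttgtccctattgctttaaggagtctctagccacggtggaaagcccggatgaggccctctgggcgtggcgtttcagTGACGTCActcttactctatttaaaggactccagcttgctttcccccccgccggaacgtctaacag
Dusp1: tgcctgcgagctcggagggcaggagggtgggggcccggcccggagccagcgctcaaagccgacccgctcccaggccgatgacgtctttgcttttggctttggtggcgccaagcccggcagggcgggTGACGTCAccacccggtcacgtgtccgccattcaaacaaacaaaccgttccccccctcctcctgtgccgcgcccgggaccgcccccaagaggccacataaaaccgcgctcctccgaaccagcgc
Klf6: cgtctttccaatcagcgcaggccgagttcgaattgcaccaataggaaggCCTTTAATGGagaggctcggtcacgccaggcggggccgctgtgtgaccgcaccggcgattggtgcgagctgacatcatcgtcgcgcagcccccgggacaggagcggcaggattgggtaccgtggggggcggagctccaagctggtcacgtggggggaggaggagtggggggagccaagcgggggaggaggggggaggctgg

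Some arrays held a wider range of values than others, and this bears on every result below. Spread is taken here as the standard deviation of an array's log2 values over the 14506 genes. In IPO it ran from 1.749 to 1.964 (median 1.929), and in sham from 1.61 to 1.961 (median 1.672). Spread averaged 1.908 ± 0.065 over the 10 IPO arrays and 1.723 ± 0.134 over the 8 sham arrays (mean ± SD), a difference of 0.185 (two-sided exact permutation test, p = 0.00304). Sham 41, 42 and 44 to 47, 6 arrays in all, lay below every IPO array. Sham 43 (1.961) and Sham 48 (1.905) lay within the IPO range, and IPO 30 (1.749) was the lowest of its group. Array medians were alike, between 5.834 and 5.924 in IPO and between 5.829 and 5.908 in sham. The submitters' notes name RMA, and neither they nor the labels give a hybridization day or RNA quality, so a batch was not tested. Since most sham arrays lie below all IPO arrays in spread, group and spread can be told apart only through the overlap of Sham 43, Sham 48 and IPO 30 and through the spread within the other groups.

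**Figure D1:**
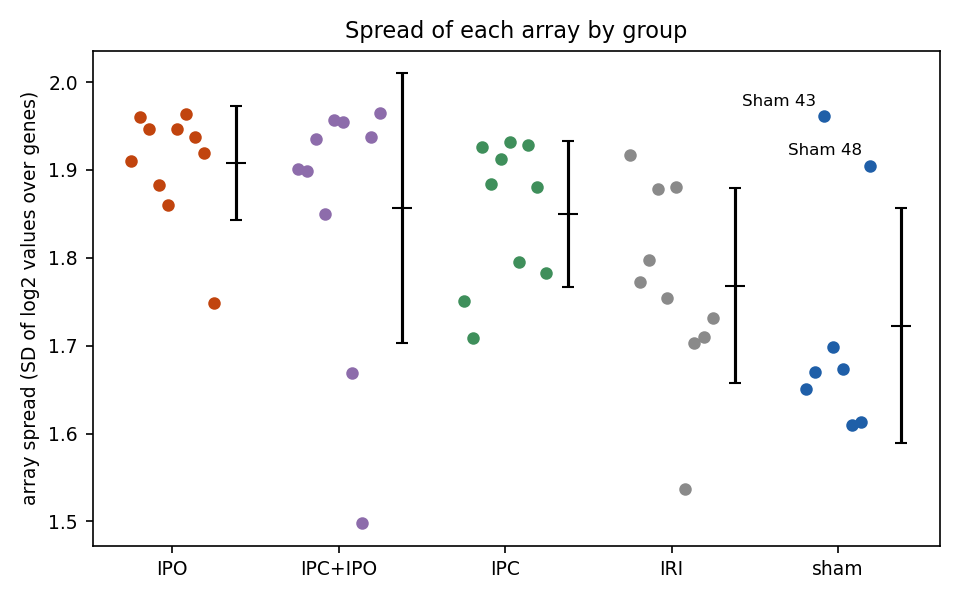
Spread of each array, the standard deviation of its log2 values over 14506 genes, for the IPO, IPC+IPO, IPC, IRI and sham groups from left to right; points are arrays, and bars are mean and SD. In sham 6 of the 8 arrays lie below every IPO array, while Sham 43 and Sham 48 lie among the IPO arrays.

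As deposited, limma called 3364 of the 14506 genes (23.2%) at a Benjamini-Hochberg adjusted p under 0.05: 2238 rose (15.4%) and 1126 fell (7.76%) in IPO against sham. With array spread as a covariate it called 0 (0.0%), with 1446 at an unadjusted p under 0.05, against 5907 as deposited. Without the 6 narrow sham arrays limma called 0. With 2 sham arrays left that fit had less power, and the part of lost power in the 0 was not tested. After renewed quantile normalization, which gives all arrays the same spread, limma called 1316 genes, 639 higher and 677 lower. Of these 987 were also called as deposited. Of the calls, 66.5% were higher as deposited, 58.8% with arrays scaled to a common spread (999 higher, 701 lower) and 48.6% after quantile normalization. In what follows, rose and fell describe calls of the fit as deposited, and the difference with the covariate, abbreviated as covariate difference, stands beside most genes. None of these genes was called with the covariate. Differences against Sham 43 and Sham 48 alone, the sham arrays as wide as IPO, are given with no test, as values over 2 sham arrays. Of the 99 called genes named here, 52 kept at least 50% of their size in that comparison, 37 kept less and 10 turned sign.

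The direction of the calls followed the brightness of the probe sets. Genes were divided into 5 equal parts by mean log2 value. In the brightest part 1239 rose and 21 fell in IPO, with a median difference of 0.39. In the dimmest part 2 rose and 319 fell, with a median of -0.16. With the covariate these medians were 0.0075 and 0.05. As a share, 42.7% of the brightest part rose, 25.1% of the next brightest and 0.0689% of the dimmest. A list of bright genes therefore has a higher share to be set against than the 15.4% of all genes. Over the 3364 genes called, the median ratio of the covariate difference to the difference as deposited was 0.264. In 260 of them the sign turned, and 114 kept at least 75% of their size. Against Sham 43 and Sham 48 alone, 1569 of the 3364 turned sign.

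**Figure D2:**
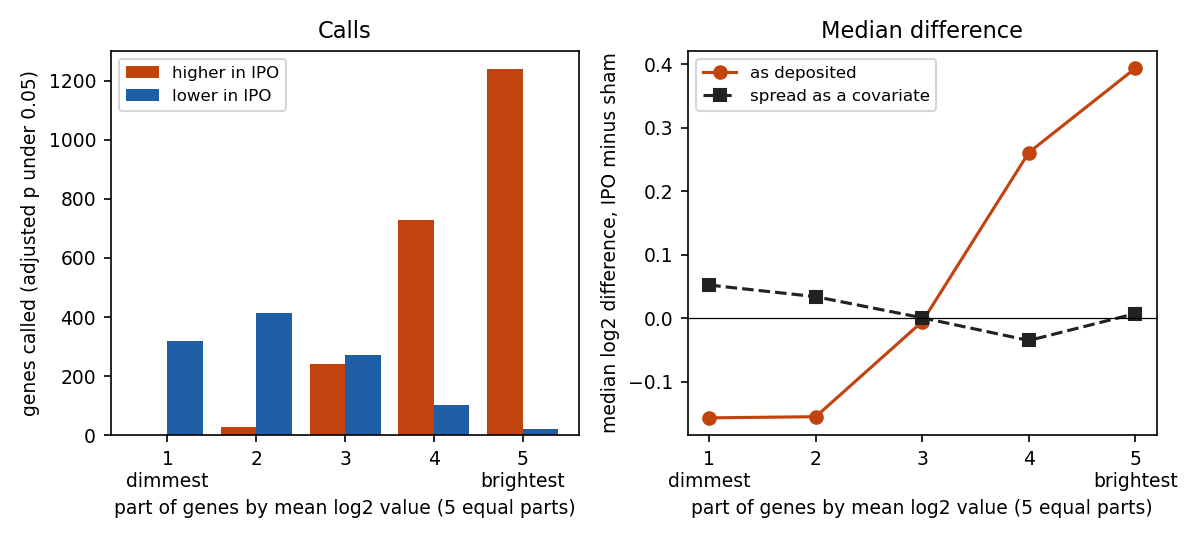
Genes in 5 equal parts by mean log2 value, dimmest at the left: the number called higher or lower in IPO (left panel) and the median log2 difference, IPO minus sham, as deposited and with array spread as a covariate (right panel). Calls are nearly all higher in the brightest part (1239 against 21) and nearly all lower in the dimmest (2 against 319).

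The AP-1 and early transcription factors kept the largest share of their median difference with the covariate. This ranking is among those of the 38 gene lists, cell type markers aside, with a median above 0 as deposited. Of 26 measured, 14 rose, 1 fell and 11 were not called (background: 15.4% higher, 7.76% lower), and 21 lay above 0. The median difference of the list was 0.46 as deposited, 0.40 with the covariate, 0.36 against Sham 43 and Sham 48 alone and 0.33 after quantile normalization; the median over all genes was 0.0012, 0.02, -0.0079 and -0.0072. With the covariate 24 of 26 lay above 0, and 13 were higher and 0 lower at an unadjusted p under 0.05, against 779 higher and 667 lower of 14506 genes. After quantile normalization 11 members rose (42.3%) and 1 fell (3.85%), against 4.41% and 4.67% of all genes. Leaving out single arrays moved the count that rose between 12 and 14. The list was chosen with earlier results of these arrays known, so its direction is not independent evidence.

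Atf3 (probe set 10770710), a stress-induced transcription factor that dimerizes with Jun, had the largest rise of the genes named. It ranged from 6.90 to 10.80 (median 9.19) on the log2 scale in IPO, and from 5.63 to 7.83 (median 5.97) in sham. In 8 of the 10 IPO arrays it lay above every sham array, while IPO 27 (6.97) and IPO 29 (6.90) lay below Sham 48. The difference was 2.63 ± 0.57 (SE, adjusted p = 0.00388), or 6.18-fold, and 2.19 ± 0.64 with the covariate. Against Sham 43 (6.94) and Sham 48 (7.83) alone it was 1.51.

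Jun (probe set 10878112), the founding AP-1 subunit, ranged from 7.67 to 10.66 (median 9.47) in IPO and from 6.32 to 8.83 (median 7.62) in sham. It rose by 1.81 ± 0.38 (adjusted p = 0.00322), with a covariate difference of 1.41 ± 0.41, and 8 IPO arrays lay above every sham array. Against Sham 43 (8.83) and Sham 48 (8.10) alone the difference was 0.85. Jund (probe set 10790948), a subunit that most cells hold before stimulation, ranged from 7.43 to 8.88 (median 8.04) in IPO and from 6.23 to 7.21 (median 6.73) in sham. Every IPO array exceeded every sham array in Jund, including Sham 43 (7.21) and Sham 48 (7.18). It rose by 1.28 ± 0.23 (adjusted p = 0.00146), the covariate difference was 0.94 ± 0.24, and the difference against those 2 sham arrays was 0.85. Junb (probe set 10806585) rose by 1.54 ± 0.32 (adjusted p = 0.00322; covariate difference 1.15 ± 0.34), with IPO at 7.49 to 9.93 and sham at 6.31 to 8.04, and stood at 0.62 against Sham 43 and Sham 48.

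Other early factors were called in the same direction. Fos (probe set 10886031) ranged from 5.89 to 9.28 (median 8.32) in IPO and from 5.98 to 7.45 (median 6.50) in sham, a rise of 1.55 ± 0.38 (adjusted p = 0.00658; covariate difference 1.35 ± 0.42). In Fos, 8 IPO arrays lay above every sham array and 1 lay below every sham array. Egr1 (probe set 10800919), a zinc finger factor induced by growth signals, ranged from 7.48 to 10.10 (median 8.46) in IPO and from 6.18 to 8.19 (median 6.94) in sham. Its rise was 1.56 ± 0.37 (adjusted p = 0.00582), with a covariate difference of 1.40 ± 0.42 and 0.76 against Sham 43 (7.47) and Sham 48 (8.19). The nuclear receptor Nr4a1 (probe set 10899387) ran from 5.70 to 8.07 (median 6.71) in IPO and from 4.89 to 6.14 (median 5.79) in sham, with 9 IPO arrays above every sham array. It rose by 1.24 ± 0.28 (adjusted p = 0.00442; covariate difference 0.93 ± 0.30). Against Sham 43 and Sham 48 alone, Fos stood at 1.07 and Nr4a1 at 1.03. Fos and Egr1 were picked with their values in view.

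The Krüppel-like factor genes Klf2, which endothelial cells raise under flow, and Klf6 rose by 0.83 ± 0.21 and 0.94 ± 0.27, with covariate differences of 0.67 and 0.66 and 9 IPO arrays above every sham array in each. Irf1, an interferon response factor, rose by 0.77 ± 0.22 (covariate difference 0.55). Klf2, Klf6 and Irf1 stood at 0.58, 0.86 and 0.43 against Sham 43 and Sham 48 alone. Ier2 is a contrast within the list: it rose by 0.98 ± 0.28 (covariate difference 0.55). Sham 48 (8.95) and Sham 43 (8.15) reached into its IPO range of 7.95 to 9.90, and against those arrays alone the difference was 0.03. Egr3 was the member that fell, by 0.39 ± 0.11 (covariate difference -0.10). It stood at 0.02 against Sham 43 and Sham 48 alone.

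**Figure D3:**
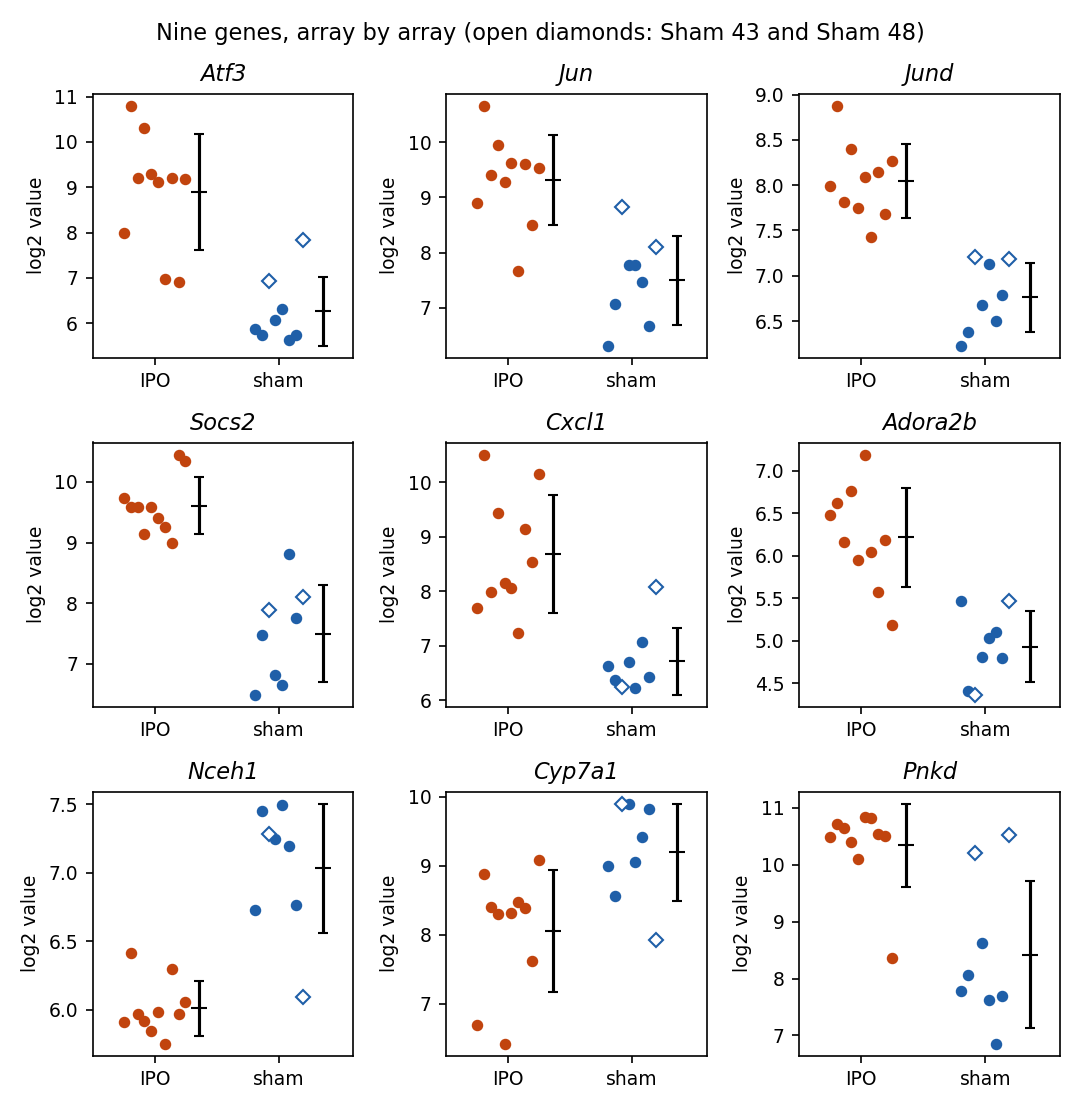
Log2 values of 9 genes array by array, IPO left and sham right; bars are mean and SD, and open diamonds mark Sham 43 and Sham 48, the sham arrays whose spread lies within the IPO range. Every IPO array lies above every sham array for Jund and Socs2, while for Pnkd the diamonds (10.21 and 10.52) lie among the IPO arrays.

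MAPK phosphatases and feedback proteins shut early signalling down again. Among 14 of their genes 3 rose, 0 fell and 11 were not called, with a median of 0.30 (0.17 with the covariate). The share that rose, 21.4%, was near the 15.4% of all genes. Dusp1 (probe set 10732652), a phosphatase of the stress kinases p38 and JNK, ranged from 8.68 to 11.24 (median 10.24) in IPO and from 7.58 to 9.91 (median 8.65) in sham. It rose by 1.40 ± 0.33 (adjusted p = 0.00568), with 0.83 ± 0.33 under the covariate and 0.39 against Sham 43 (9.91) and Sham 48 (9.42). Dusp6 (probe set 10895144), a phosphatase of ERK, rose by 1.19 ± 0.25 (adjusted p = 0.00335; covariate difference 0.66 ± 0.23), and 8 of its IPO arrays lay above every sham array. Errfi1, an inhibitor of the EGF receptor, rose by 0.59 ± 0.20 (covariate difference 0.27), a call lost when any of 4 arrays was left out. Zfp36 (probe set 10720215), which binds AU-rich messages and speeds their decay, ranged from 8.07 to 10.56 in IPO and from 6.37 to 8.76 in sham; it rose by 1.81 ± 0.38 (adjusted p = 0.00329; covariate difference 1.15 ± 0.38). Its relative Zfp36l1 was higher in every IPO array (9.35 to 10.45) than in every sham array (7.76 to 9.05), with a covariate difference of 0.72. Against Sham 43 and Sham 48 alone, Dusp6 stood at 0.60, Errfi1 at 0.18 and Zfp36 at 0.56.

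Of 13 p53, growth arrest and DNA damage genes 7 rose (53.8%, against 15.4% of all genes), 0 fell and 6 were not called, with medians of 0.43 as deposited, 0.19 with the covariate and 0.27 against Sham 43 and Sham 48. Phlda3 (probe set 10764228), an inhibitor of AKT, ranged from 6.61 to 8.94 (median 8.45) in IPO and from 6.03 to 8.34 (median 6.53) in sham. It rose by 1.57 ± 0.32 (adjusted p = 0.00261), with a covariate difference of 0.71 ± 0.24 and 0.46 against Sham 43 and Sham 48. Gadd45a and Gadd45g, activators of stress kinase cascades, rose by 1.53 ± 0.39 and 1.38 ± 0.31, with covariate differences of 0.98 and 0.76. Sham 43 lay within the IPO range of both, at 8.80 and 9.18, and against Sham 43 and Sham 48 alone the differences were 0.39 and 0.27. Against IRI the differences were 0.17 ± 0.37 and 0.15 ± 0.29, and neither was called. Plk2 rose by 1.22 ± 0.28 (covariate difference 0.60, and 0.27 against Sham 43 and Sham 48). Cdkn1a, the cell cycle inhibitor p21, rose by 0.78 ± 0.27 (covariate difference 0.67), a call lost when any of 7 arrays was left out. Outside this list, Gdf15, a secreted stress hormone, ranged from 5.65 to 8.94 (median 7.12) in IPO and from 5.36 to 6.19 (median 5.71) in sham. Its rise of 1.47 ± 0.42 (adjusted p = 0.0145) stood at 1.36 ± 0.48 with the covariate. Ppp1r15a, which restarts translation by dephosphorylating eIF2alpha, rose by 1.47 ± 0.31 (covariate difference 0.99 ± 0.32, and 0.70 against Sham 43 and Sham 48), with 9 IPO arrays above every sham array. Of its list, the 16 integrated stress response genes, 3 rose (18.8%, near the 15.4% of all genes). Leaving out single arrays moved this count between 2 and 6, the highest without Sham 43. Phgdh, an enzyme of serine synthesis, fell by 0.46 ± 0.11 (covariate difference -0.35, and -0.21 against Sham 43 and Sham 48).

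Cytokine signalling showed a few large differences. Socs2 (probe set 10901996), an inhibitor of growth hormone receptor signalling, ranged from 8.99 to 10.45 (median 9.58) in IPO and from 6.49 to 8.82 (median 7.62) in sham. No array of the groups overlapped. The rise was 2.11 ± 0.46 (adjusted p = 0.00383), or 4.31-fold, with 1.30 ± 0.46 under the covariate and 1.61 against Sham 43 and Sham 48. IRI arrays covered both ranges in Socs2, from 6.83 to 11.14, and the difference of 0.78 ± 0.43 between IPO and IRI was not called. Socs3, which restrains IL-6 signalling, rose by 0.78 ± 0.20 (covariate difference 0.71, and 0.47 against Sham 43 and Sham 48), and Socs1 fell by 0.36 ± 0.13 (covariate difference -0.03, and 0.13 against Sham 43 and Sham 48). The Socs1 call was lost when any of 12 arrays was left out. Of the 13 SOCS and JAK-STAT feedback genes 4 rose (30.8%), 1 fell and 8 were not called. That share compares with 15.4% of all genes and 42.7% of the brightest part, where the list's median level of 7.61 lies. The median difference was 0.17 (-0.02 with the covariate).

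Of 22 cytokines and chemokines 6 rose (27.3%, against 15.4% of all genes), 0 fell and 16 were not called; the median was 0.41 and with the covariate 0.17, where 19 of 22 lay above 0. Cxcl1 (probe set 10775900), a neutrophil-attracting chemokine, ranged from 7.24 to 10.51 (median 8.35) in IPO and from 6.22 to 8.08 (median 6.53) in sham, the highest being Sham 48. It rose by 1.97 ± 0.55 (adjusted p = 0.0122), or 3.92-fold, and kept 1.88 ± 0.62 with the covariate. The anti-inflammatory cytokine gene Il10 rose by 0.83 ± 0.23 (covariate difference 0.70), Ccl3 by 0.94 ± 0.25 (0.68) and Csf1, the growth factor of macrophages, by 0.60 ± 0.14 (0.36). Adora2b (probe set 10734291), the low-affinity adenosine receptor, ranged from 5.18 to 7.19 (median 6.18) in IPO and from 4.36 to 5.46 (median 4.92) in sham, with 9 IPO arrays above every sham array. Its rise of 1.29 ± 0.25 (adjusted p = 0.00176) stood at 1.24 ± 0.28 with the covariate and at 1.30 against Sham 43 (4.36) and Sham 48 (5.46). With the covariate its adjusted p was 0.0755, a value tied with the smallest of any gene (over all alternatives, 2.8e-05 to 1). Adora2b was the only member called among 20 fibrinolysis and vascular tone genes. That share of 5% lies below the 15.4% of all genes that rose, and the list's median was -0.0052.

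Among 24 interferon-stimulated genes 7 rose (29.2%, against 15.4% of all genes) and 1 fell. Their median level of 6.41 lies in the part next below the brightest, where 25.1% of genes rose. Leaving out single arrays moved the count that rose between 6 and 13, the highest without IPO 30. The median was 0.43, with 0.12 under the covariate and 0.04 against Sham 43 and Sham 48. Ifit1 rose by 0.97 ± 0.30 and kept 0.97 with the covariate. The member that fell was Ubd (probe set 10830854), a ubiquitin-like modifier induced by interferon and TNF. It ranged from 4.52 to 7.45 (median 4.76) in IPO and from 4.96 to 8.50 (median 6.74) in sham. In 9 IPO arrays it lay below every sham array, while IPO 22 stood apart at 7.45. The fall was 1.61 ± 0.58 (adjusted p = 0.0383; covariate difference -1.69 ± 0.65, and -3.20 against Sham 43 at 7.91 and Sham 48 at 8.50), and the call was lost when any of 11 arrays was left out. S100a8, a calcium-binding protein of neutrophils, rose by 0.80 ± 0.29 (covariate difference 0.82, and 0.48 against Sham 43 and Sham 48), a call lost when any of 13 arrays was left out.

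Of 21 cytosolic heat shock chaperones 11 rose (52.4%), 0 fell and 10 were not called. This compares with 15.4% of all genes and 42.7% of the brightest part, where the list's median level of 7.62 lies. In the list 20 lay above 0, with a median difference of 0.44. That median was 0.12 with the covariate and 0.02 against Sham 43 and Sham 48, and the count that rose lay between 7 without IPO 22 and 15 without Sham 43. Hspb1 (probe set 10761128), which codes for Hsp27, ranged from 5.70 to 9.18 (median 7.93) in IPO and from 5.50 to 7.60 (median 5.88) in sham, a rise of 1.61 ± 0.37 (adjusted p = 0.00463; covariate difference 0.98 ± 0.37). Dnajb1 (probe set 10810295), a co-chaperone of Hsp70, ranged from 6.57 to 9.39 (median 8.54) in IPO and from 6.10 to 7.75 (median 6.75) in sham, and rose by 1.36 ± 0.27 (adjusted p = 0.00183; covariate difference 0.87 ± 0.26). In both genes 7 IPO arrays lay above every sham array. Against Sham 43 and Sham 48 alone Hspb1 stood at 0.66 and Dnajb1 at 0.51. Hspb8, a small heat shock protein, rose by 0.81 ± 0.19 (covariate difference 0.28, and 0.15 against Sham 43 and Sham 48). Hspa8, the constitutive Hsp70, rose by 0.58 ± 0.15 (covariate difference 0.30). Its difference was 0.00 against Sham 43 and Sham 48 alone, and it turned to -0.0072 with arrays scaled to a common spread.

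Antioxidant genes were called higher more often than all genes (15.4%), and their median shrank with the covariate. The list is bright, with a median level of 9.50, and 42.7% of the brightest part of all genes rose. Of 22 antioxidant and glutathione genes 14 rose (63.6%) and 0 fell, and 8 rose without Sham 45. The median difference was 0.42, with 0.11 under the covariate and 0.03 against Sham 43 and Sham 48. With arrays scaled to a common spread 3 rose and 2 fell, where 6.89% of all genes were called higher and 4.83% lower. Osgin1 (probe set 10808302), a growth inhibitor induced by oxidative stress that is not in the list, separated the groups: every IPO array (7.90 to 8.47, median 8.23) exceeded every sham array (5.64 to 7.32, median 6.36). It rose by 1.68 ± 0.29 (adjusted p = 0.00114), or 3.21-fold, with a covariate difference of 1.11 ± 0.28 and 0.94 against Sham 43 and Sham 48. Hmox1 (probe set 10806122), the heme oxygenase, ranged from 6.29 to 7.71 (median 7.14) in IPO and from 5.68 to 7.09 (median 5.84) in sham, where Sham 43 was the highest; it rose by 1.04 ± 0.21 (adjusted p = 0.00224; covariate difference 0.53 ± 0.17, and 0.25 against Sham 43 and Sham 48). The ferritin chain genes Ftl1 and Fth1, which store iron, rose by 0.88 ± 0.15 and 0.35 ± 0.08, with covariate differences of 0.48 and 0.16. Against Sham 43 and Sham 48 these were 0.02 and 0.04, and Fth1 turned to -0.32 with arrays scaled to a common spread. The glutathione peroxidase Gpx1 rose by 0.65 ± 0.16 (covariate difference 0.39, and 0.06 against Sham 43 and Sham 48) and stood at -0.12 ± 0.15 against IRI.

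Of 18 actin cytoskeleton and SRF target genes 10 rose (55.6%, against 15.4% of all genes), 0 fell and 8 were not called. The median was 0.43 (0.13 with the covariate), and leaving out single arrays moved the count that rose between 7 and 12. Rhob (probe set 10889177), an immediate-early GTPase, ranged from 7.52 to 10.09 (median 8.71) in IPO and from 5.81 to 8.03 (median 6.57) in sham. It rose by 2.02 ± 0.39 (adjusted p = 0.00176; covariate difference 1.46 ± 0.41), with 8 IPO arrays above every sham array. Ccn1, a matricellular protein induced through SRF and YAP, rose by 1.39 ± 0.29 (covariate difference 1.11 ± 0.31), and gamma actin, Actg1, by 1.53 ± 0.30 (0.84 ± 0.26). Against Sham 43 and Sham 48 alone Rhob stood at 1.03, Ccn1 at 0.81 and Actg1 at 0.41. Apold1, an early gene of endothelial cells under stress, rose by 1.30 ± 0.30 (covariate difference 0.75, and 0.56 against Sham 43 and Sham 48). It was the only called member of 13 sinusoidal endothelial markers. The other 12 were not called, and the median of the 13 was 0.20 (-0.12 with the covariate).

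Calls among genes of fasting metabolism and of lipid synthesis were mostly higher, as they were in the brightest part of all genes. Of 21 fatty acid oxidation and fasting genes 9 rose (42.9%), 2 fell and 10 were not called (median 0.34, or 0.03 with the covariate). The share that rose exceeded the 15.4% of all genes but was near the 42.7% of the brightest part, where the list's median level of 8.96 lies. After quantile normalization 3 rose (14.3%) and 2 fell (9.52%), against 4.41% and 4.67% of all genes. With arrays scaled to a common spread 4 rose and 2 fell, where 6.89% of all genes were called higher and 4.83% lower. Pdk4 (probe set 10860900), the kinase that blocks glucose oxidation, was higher in every IPO array (8.85 to 10.46, median 9.16) than in every sham array (7.28 to 8.28, median 7.94). It rose by 1.57 ± 0.35 (adjusted p = 0.00412; covariate difference 1.16 ± 0.38). Fgf21 (probe set 10721871), a hormone that the liver releases under metabolic stress, ranged from 7.02 to 9.70 (median 8.22) in IPO and from 6.21 to 7.93 (median 6.52) in sham, with a rise of 1.67 ± 0.36 (adjusted p = 0.00342; covariate difference 1.23 ± 0.38, and 0.87 against Sham 43 and Sham 48). Angptl4, an inhibitor of lipoprotein lipase, and Plin2, a lipid droplet coat protein, rose by 1.36 ± 0.31 and 1.08 ± 0.27, with covariate differences of 0.68 and 0.62, and 0.72 and 0.47 against Sham 43 and Sham 48. Both were also called against IRI, at 1.28 ± 0.29 and 1.08 ± 0.25. In that comparison 22.8% of all genes were called as deposited, and 2 genes with the covariate. Cpt1a (probe set 10712657), the gate of fatty acids into mitochondria, ranged from 7.39 to 9.64 (median 7.98) in IPO and from 7.86 to 9.64 (median 9.09) in sham. It fell by 0.82 ± 0.29 (adjusted p = 0.0371), and the covariate difference was larger, -1.09 ± 0.32, though the call was lost when any of 13 arrays was left out. The coactivator gene Ppargc1a fell by 0.47 ± 0.17 (covariate difference -0.26, and -0.18 against Sham 43 and Sham 48), a call lost when any of 11 arrays was left out.

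Of 22 cholesterol and fatty acid synthesis genes 13 rose (59.1%), 0 fell and 9 were not called. This compares with 15.4% of all genes and 42.7% of the brightest part, where the list's median level of 8.79 lies. All 22 lay above 0, with a median of 0.65, the highest of the 38 lists as deposited, and 0.22 with the covariate. Insig1 (probe set 10859880), a sterol sensor of the endoplasmic reticulum, ranged from 10.58 to 11.70 (median 10.98) in IPO and from 8.94 to 10.73 (median 9.89) in sham. It rose by 1.15 ± 0.24 (adjusted p = 0.00325; covariate difference 0.78 ± 0.25, and 0.48 against Sham 43 and Sham 48). Fdft1, the squalene synthase, rose by 1.15 ± 0.25 (covariate difference 0.50, and 0.33 against Sham 43 and Sham 48). Fdps, an earlier enzyme of the same route, rose by 0.77 ± 0.19 (covariate difference 0.47), but turned to -0.09 against Sham 43 and Sham 48 and was -0.20 ± 0.18 against IRI. Slc6a6 (probe set 10857314), the taurine transporter, ranged from 6.85 to 9.38 (median 8.84) in IPO and from 6.03 to 7.67 (median 6.44) in sham; 9 IPO arrays lay above every sham array. It rose by 2.06 ± 0.42 (adjusted p = 0.00285; covariate difference 1.25 ± 0.41, and 1.27 against Sham 43 and Sham 48) and by 1.69 ± 0.40 against IRI (adjusted p = 0.0114).

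Several clock output genes and hepatocyte enzymes fell by amounts that changed little with the covariate. Of 10 clock output genes 2 rose (20%) and 4 fell (40%), against 15.4% and 7.76% of all genes. In the brightest part, where the list's median level of 7.65 lies, 42.7% rose and 0.724% fell. Those 4 falls were 1 to 4 when single arrays were left out: 4 without IPO 30 or Sham 48, 3 without Sham 47, 2 without IPO 24, 25, 29 or Sham 41, and 1 without any other array. Of 12 core clock genes 4 rose (33.3%, against 15.4% of all genes) and 0 fell. Their median level of 6.54 lies in the part next below the brightest, where 25.1% of genes rose. Bmal1 (probe set 10710028), the activator of the clock, ranged from 6.34 to 7.64 (median 7.44) in IPO and from 5.21 to 7.08 (median 5.61) in sham. It rose by 1.46 ± 0.35 (adjusted p = 0.0064; covariate difference 1.08 ± 0.38, and 0.95 against Sham 43 and Sham 48). Nfil3, a repressor of clock output, rose by 1.14 ± 0.25 (covariate difference 0.79, and 0.54 against Sham 43 and Sham 48). Dbp (probe set 10706953), an activator that competes with Nfil3 for the same sites, ranged from 6.16 to 8.43 (median 6.36) in IPO and from 6.32 to 9.61 (median 8.05) in sham. It fell by 1.53 ± 0.54 (adjusted p = 0.0347; covariate difference -1.33 ± 0.61). Tef, a relative of Dbp, fell by 0.64 ± 0.18 with the same covariate difference of -0.64, and Usp2 fell by 0.72 ± 0.27 (covariate difference -0.60). The calls of Dbp and Usp2 were lost when any of 13 and any of 15 arrays was left out. Per3, Nr1d1 and Nr1d2 were not called, at -0.73 ± 0.29, -0.73 ± 0.39 and -0.63 ± 0.29 (covariate differences -0.77, -0.97 and -1.01). Sham 43 was the highest sham array in Dbp, Tef, Nr1d1, Nr1d2 and Per3, and Sham 48 the lowest sham array in each of them. The labels give no hour of biopsy, so the part of the time of day was not tested.

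Por (probe set 10761162), counted with the clock output genes, passes electrons to microsomal P450 enzymes. It ranged from 7.37 to 8.91 (median 8.01) in IPO and from 7.49 to 9.97 (median 8.89) in sham. It fell by 0.87 ± 0.32 (adjusted p = 0.0422; covariate difference -0.97 ± 0.36), with a call that was lost when any of 14 arrays was left out. Cyp7a1 (probe set 10875324), the rate-limiting enzyme of bile acid synthesis, ranged from 6.43 to 9.09 (median 8.35) in IPO and from 7.93 to 9.90 (median 9.24) in sham, Sham 48 being the lowest. Its fall of 1.14 ± 0.38 (adjusted p = 0.0297) stood at -1.08 ± 0.43 with the covariate, and at -0.17 ± 0.36 between IPO and IRI, which was not called. Nr0b2, the repressor SHP that acts on Cyp7a1, rose by 1.29 ± 0.39; its covariate difference was 0.71, and against Sham 43 and Sham 48 it turned to -0.16. Abcc4, an export pump, fell by 0.45 ± 0.13 (covariate difference -0.17, and -0.06 against Sham 43 and Sham 48). In all, 5 of 18 bile acid synthesis and transport genes rose (27.8%) and 2 fell (11.1%), against 15.4% and 7.76% of all genes. In the brightest part, where the list's median level of 8.99 lies, 42.7% rose and 0.724% fell. In the list 1 rose without Sham 45, 2 without Sham 41 or Sham 42, 3 without Sham 44 and 7 without Sham 43. With arrays scaled to a common spread 1 rose and 4 fell, where 6.89% of all genes were called higher and 4.83% lower. Leaving out any of 5 arrays ended the Cyp7a1 call, and any of 2 the Nr0b2 call.

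Hsd17b2 (probe set 10811341), which inactivates estradiol and testosterone, ranged from 8.55 to 11.15 (median 9.32) in IPO and from 10.08 to 11.91 (median 10.73) in sham. It fell by 1.20 ± 0.41 (adjusted p = 0.033; covariate difference -1.27 ± 0.47) and by 1.58 ± 0.39 against IRI (adjusted p = 0.0133). The uridine phosphorylase gene Upp2 fell by 1.26 ± 0.43 (covariate difference -1.18) and likewise by 1.25 ± 0.41 against IRI. Against sham, the calls of Hsd17b2 and Upp2 were each lost when any of 8 arrays was left out. Cyp1a1, a P450 enzyme of aromatic compounds, fell by 0.68 ± 0.23 with the same covariate difference of -0.68. Of the 30 P450 genes 7 rose (23.3%), against 15.4% of all genes and 42.7% of the brightest part, where their median level of 10.12 lies. The list's median was -0.04 with the covariate. With arrays scaled to a common spread 0 rose and 3 fell, where 6.89% of all genes were called higher and 4.83% lower. Apoa1, the main protein of HDL, fell by 0.27 ± 0.08 (covariate difference -0.28, and -0.18 against Sham 43 and Sham 48). Nceh1 (probe set 10814521), an esterase that hydrolyses cholesterol esters, ranged from 5.75 to 6.41 (median 5.97) in IPO and from 6.10 to 7.50 (median 7.22) in sham, where Sham 48 was the lowest. It fell by 1.02 ± 0.19 (adjusted p = 0.00146) and kept -1.01 ± 0.21 with the covariate, and stood at -0.68 against Sham 43 and Sham 48. Its p with the covariate was the smallest of all genes (adjusted p = 0.0755, and 4.6e-07 to 1 over all alternatives).

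**Figure D4:**
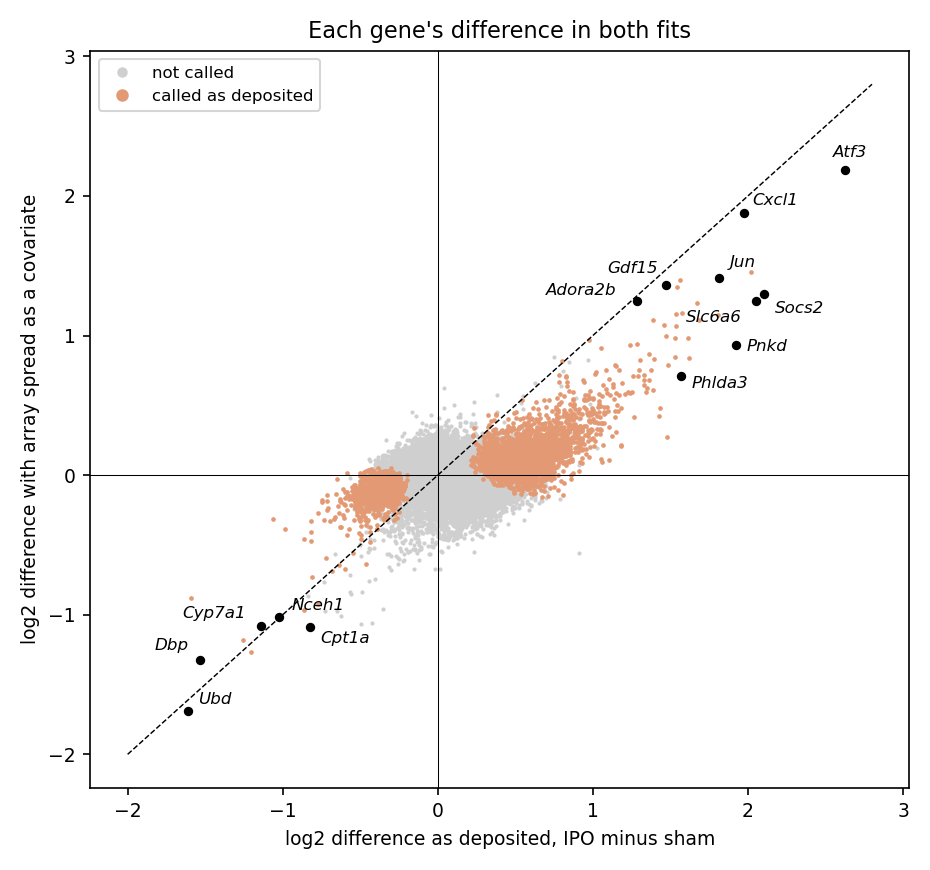
Log2 difference of each of the 14506 genes, IPO minus sham, as deposited (horizontal axis) and with array spread as a covariate (vertical axis); the dashed line marks equal values. Most called genes lie closer to 0 on the vertical axis, while Adora2b, Cxcl1, Gdf15, Ubd, Cyp7a1 and Nceh1 lie near the dashed line.

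Some of the largest differences were much smaller against Sham 43 and Sham 48 alone. Pnkd (probe set 10924274) ranged from 8.35 to 10.85 (median 10.53) in IPO and from 6.85 to 10.52 (median 7.92) in sham. Its rise of 1.92 ± 0.41 (adjusted p = 0.00335) was 0.94 ± 0.35 with the covariate and -0.02 against Sham 43 (10.21) and Sham 48 (10.52). IPO 30, the IPO array of lowest spread, was its lowest at 8.35. C9h2orf72, an open reading frame, rose by 1.62 ± 0.31 (covariate difference 0.84) and stood at 0.36 against these sham arrays. Fancd2osl1, Ccdc107 and H4c14 fell by 1.06 ± 0.26, 0.99 ± 0.28 and 0.86 ± 0.20, with covariate differences of -0.31, -0.39 and -0.46. Against these sham arrays they turned to 0.03, 0.33 and 0.0013. Gng3, a G protein subunit gene, fell by 0.82 ± 0.15, with a covariate difference of -0.47 and -0.13 against these arrays.

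Lists of housekeeping genes differed in their share of calls, and their medians came near 0 with the covariate. For comparison, 15.4% of all genes and 42.7% of the brightest part rose. Of 30 proteasome subunit genes 17 rose (56.7%) and 0 fell, and the list's median was 0.47 in the deposited values, 0.05 with the covariate and -0.15 against Sham 43 and Sham 48; the count lay between 9 without Sham 46 and 20 without IPO 30. Psmc4 and Psma1 rose by 0.59 ± 0.13 and 0.80 ± 0.18 (covariate differences 0.19 and 0.24), and each stood at 0.02 against Sham 43 and Sham 48. Of 69 cytosolic ribosomal protein genes 16 rose (23.2%) and 0 fell as deposited, with a median of 0.10 and counts between 8 without Sham 46 and 24 without Sham 48, but 3 rose and 12 fell after quantile normalization, and 2 rose and 21 fell with arrays scaled to a common spread. Rps4x and Rpl6 rose by 0.70 ± 0.16 and 0.89 ± 0.20 (covariate differences 0.25 and 0.30) and turned to -0.13 and -0.21 against Sham 43 and Sham 48. Of 33 complex I genes of the respiratory chain 6 rose as deposited (18.2%, near the share of all genes; 3 without IPO 27, 14 without Sham 48), and 0 rose and 5 fell after quantile normalization. Of 34 genes of complexes II to V, 15 rose as deposited (44.1%; 7 without Sham 46, 20 without Sham 48), and 1 rose and 2 fell after quantile normalization. With arrays scaled to a common spread, 6.89% of all genes were called higher and 4.83% lower. Calls were fewer over all genes after quantile normalization, with 4.41% higher and 4.67% lower. In that setting 3 of 21 chaperones (14.3%), 5 of 22 antioxidant genes (22.7%), 3 of 22 cholesterol and fatty acid synthesis genes (13.6%), 3 of 18 actin and SRF genes (16.7%), 3 of 24 interferon-stimulated genes (12.5%) and 3 of 30 proteasome genes (10%) rose. Of the chaperone, antioxidant, actin and proteasome lists 1 gene each fell. Among cytokines and chemokines 5 of 22 rose (22.7%), and among growth arrest genes 5 of 13 (38.5%).

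**Figure D5:**
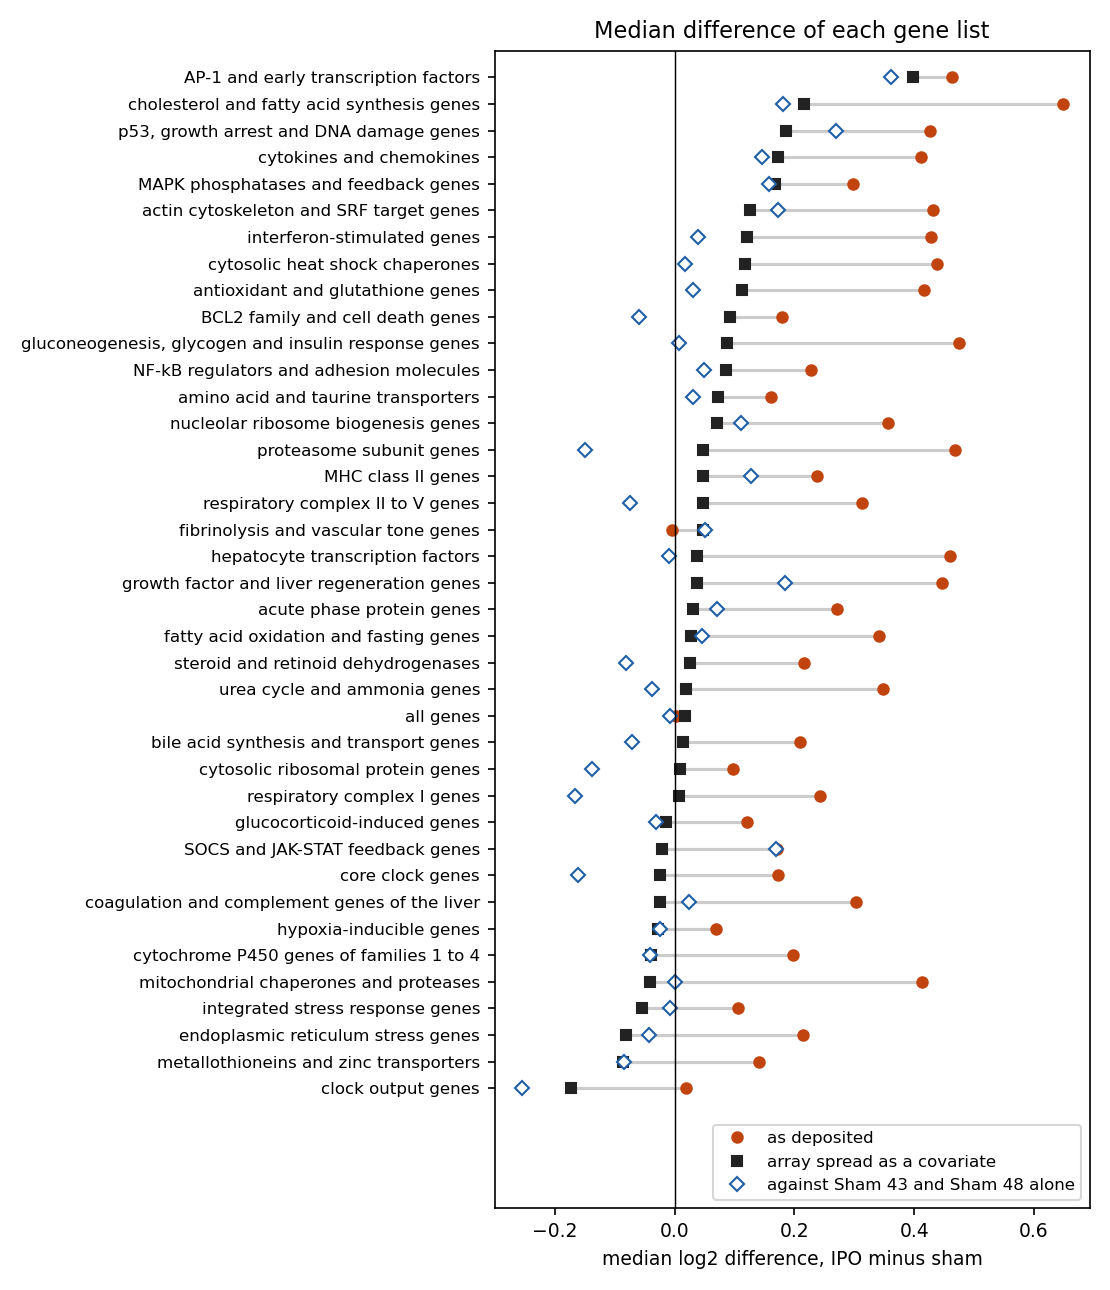
Median log2 difference, IPO minus sham, of each of 38 gene lists and of all genes: as deposited (circles), with array spread as a covariate (squares) and against Sham 43 and Sham 48 alone (open diamonds). The AP-1 and early transcription factors keep 0.40 of 0.46 with the covariate, while proteasome subunit genes keep 0.05 of 0.47.

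Complete separation of the groups was rare. It needs no variance model, but it is not adjusted for array spread. In 15 genes (0.103% of 14506) every IPO array lay above every sham array, and in 6 (0.0414%) every IPO array lay below. The 15 were Apol9a, Ets2, Fabp1, Fabp5, Gstm3, Gstm6l, Jund, Mab21l3, Osgin1, Pdk4, Socs2, Tpt1, Vps37b, Zfand5 and Zfp36l1; all but Gstm3 were called. The differences of these 15 ran from 0.26 (Fabp1, the liver fatty acid binding protein) to 2.11 (Socs2). Covariate differences were 0.58 in Apol9a, 0.49 in Ets2, 0.15 in Fabp1, 0.49 in Fabp5, 0.22 in Gstm3 and 0.38 in Gstm6l. They were 0.37 in Mab21l3, 0.20 in Tpt1, 0.30 in Vps37b, 0.29 in Zfand5 and 0.72 in Zfp36l1. Those of Jund, Osgin1, Pdk4 and Socs2 are given above. Fabp1 and Tpt1 turned to -0.43 and -0.17 with arrays scaled to a common spread. The 6 below were Cnga2, Defb30, Fam83b, Irak1bp1, Or8b45 and Skp2, all but Or8b45 called, with differences from -0.56 (Defb30) to -0.22. Covariate differences were -0.03 in Cnga2, -0.22 in Defb30, -0.37 in Fam83b and -0.30 in Irak1bp1, and Or8b45 turned to 0.08. Skp2, the ubiquitin ligase subunit that marks p27 for decay, ranged from 4.62 to 4.97 in IPO and from 4.97 to 5.64 in sham, and fell by 0.50 ± 0.10 (covariate difference -0.32, and -0.27 against Sham 43 and Sham 48). These genes were picked out after their values were seen, except those that the rule for named genes gives.

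Against IRI, which shares the IPO arrays with the sham comparison, limma called 3307 genes (22.8%) as deposited and 2 with the covariate, both lower in IPO. These comparisons are therefore not independent. Spread averaged 1.768 ± 0.111 over the 10 IRI arrays (mean ± SD), below the 1.908 of IPO. IRI 07 had a spread of 1.537 and the lowest mean correlation with the other arrays of the series, 0.888. Jund stood at 0.60 ± 0.22 against IRI (adjusted p = 0.041), Fos at 0.95 ± 0.36 (adjusted p = 0.0476), Adora2b at 0.77 ± 0.23 (adjusted p = 0.024), Pdk4 at 1.01 ± 0.33 (adjusted p = 0.0298) and Osgin1 at 0.78 ± 0.27 (adjusted p = 0.0378), all called. Atf3, Jun, Junb and Cxcl1 were not called against IRI, at 1.05 ± 0.54, 0.78 ± 0.36, 0.17 ± 0.30 and 0.70 ± 0.52. Ninj1, a mediator of plasma membrane rupture, rose by 1.04 ± 0.19 against sham (covariate difference 0.51), stood at 0.07 against Sham 43 (8.81) and Sham 48 (9.01), and at 0.04 ± 0.18 against IRI. Pmaip1, the death gene Noxa, fell by 0.66 ± 0.15 against sham (covariate difference -0.30, and -0.08 against Sham 43 and Sham 48). The list of AP-1 and early factors had 2 members called higher and 2 called lower against IRI, with a median of 0.17.

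Markers of the cell types of the liver were summed per array on the linear scale, and the sums are given as log2. Over all genes 15.4% rose and 7.76% fell, for comparison with the marker counts. The 14 hepatocyte markers summed to between 16.079 and 16.22 in IPO and between 15.895 and 16.159 in sham. Of these 4 rose and 1 fell, with a median difference of 0.21 (0.0072 with the covariate). The median levels of the hepatocyte and Kupffer cell lists, 12.29 and 7.47, lie in the brightest part of all genes. In that part 42.7% rose and 0.724% fell. The 16 Kupffer cell and macrophage markers summed to between 11.156 and 12.508 in IPO and between 11.223 and 12.391 in sham. Of these 2 rose, and their median difference of 0.25 was -0.12 with the covariate. The 15 neutrophil markers, which bear on Cxcl1 and S100a8, summed to between 8.681 and 9.451 in IPO and between 8.693 and 9.208 in sham. S100a8 rose, Elane and Ngp fell, and the median was -0.20 (0.07 with the covariate). The 19 stellate and mesenchymal markers summed to between 11.373 and 11.891 in IPO and between 11.313 and 11.975 in sham, with 3 higher and a median of -0.0075 (-0.22 with the covariate). The sums of sinusoidal endothelial markers ran from 10.856 to 11.575 in IPO and from 10.876 to 11.49 in sham, those of cholangiocyte markers from 9.377 to 10.127 in IPO and from 9.339 to 9.908 in sham. Lymphocyte markers summed to between 9.125 and 9.404 in IPO and between 9.184 and 9.533 in sham. The 9 erythroid and platelet markers, with none called, summed to between 11.918 and 13.629 in IPO and between 11.993 and 13.571 in sham. The ranges of the groups overlapped in all 8 marker lists. RMA values have no 0, so absence of a marker cannot be read from them, and in bulk tissue fewer cells of a type and less RNA per cell cannot be told apart. The part of cell makeup in the results was not tested.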

How the data were processed

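Total RNA of right-lobe liver biopsies was measured on Affymetrix arrays in 48 rats, each a separate animal. The deposited values are log2 expression summaries from the authors, with RMA and Affymetrix Expression Console as the tools named in the submitters' processing notes; versions, hybridization days and a genome build are not given in the sources used here. Probe sets were named through the platform annotation, and the probe set of highest mean stood for a gene, giving 14506 genes. limma 3.58.1 in R 4.3.3 (lmFit, eBayes) was fitted to all 5 groups together, two-sided, with Benjamini-Hochberg adjustment over all genes and a threshold of 0.05. The fit was tested on simulated data. Python 3.11.15 and matplotlib 3.10.9 made the summaries and plots.

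The genes to name were the 12 largest rises and 12 largest falls called, the 5 members of each list with the smallest p, the 5 largest rises and 5 largest falls also called against IRI, and the 10 largest called with and without the covariate, of which there were 0; receptors of smell and unnamed loci were skipped, and a selection is given. Fos, Egr1, Klf2, Klf6, Ier2, Irf1, Egr3, Cdkn1a, Ifit1, Ppargc1a, Usp2, Nr1d1, Nr1d2, Cyp1a1, Nme7, Amd1 and most genes that separated the groups fall outside this rule and were chosen after their values were seen. The comparison, the gene lists and the markers were chosen with earlier results of these data known. Alternatives were array spread as a covariate, scaling, centring, quantile normalization, other variance models, array weights, other probe set choices and thresholds, and each array left out. The number of arrays limits the precision. Promoter windows came from RefSeq.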

Additional observations from a re-analysis of the deposited data

Results flagged for a closer look

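Of 214 groups of values tested for a sample far from the others (array spread and the genes named, in IPO and in sham), 26 stood out; chance alone flags about 1 group in 20. IPO 30 accounted for most of them. Its array spread of 1.749 lay below the next IPO array at 1.86. It was the lowest IPO array in Phlda3 (6.607), Ftl1 (11.891), Gpx1 (10.857), Psmc4 (8.938), Psma1 (8.909), Rps4x (10.788), Rpl6 (9.466), Pnkd (8.354), C9h2orf72 (7.285), Ninj1 (7.979), Apol9a (8.208), Nme7 (5.554) and Amd1 (6.568). It was the highest in Ppargc1a (5.143), Usp2 (6.554) and Per3 (5.439), all on the log2 scale.

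IPO 22 was far above the other IPO arrays in Dusp6 (9.479), Ubd (7.448), Nfil3 (9.462), Gstm3 (6.303), Zfand5 (8.608) and Zfp36l1 (10.446). In Ubd the next IPO array stood at 4.902.

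In sham, array 48 was far above the others in Cxcl1 (8.082, next 7.069) and Angptl4 (8.707, next 7.327), and array 41 in Irak1bp1 (5.654, next 5.243).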

How the results depend on the processing

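The 3364 calls fell to 0 with array spread as a covariate, 0 with only arrays in the shared range of spread (9 IPO and 2 sham) and, chosen after seeing the data, 0 without the 6 sham arrays below every IPO array and 2 with the covariate and only IPO and sham in the fit (Nme7 and Amd1); at an unadjusted p under 0.05 these held 1446, 178, 166 and 1337 genes. They numbered 1700 with arrays scaled, 1316 after quantile normalization, 1065 at 1.5-fold or more and 697 at an adjusted p under 0.01, against 5455 with only IPO and sham in the fit, 9749 with array weights (5268 higher, 4481 lower) and 5801 of 29215 over all probe sets (3069 higher, 2732 lower). The fits that kept 2 sham arrays also had less power. The cause was not tested. Median-centring, a trended robust model, the largest-variance probe set and dropping the dimmest genes kept the count within 1.5 times. Leaving out 1 array gave 1789 to 5572 calls: 1822 without Sham 41, 2027 without Sham 42, 5572 without Sham 43, 1884 without Sham 45, 1789 without Sham 46 and 1941 without Sham 47. Calls against IRI numbered 2 with the covariate, against 3307 as deposited. The difference in array spread held under its alternatives (0.169 to 0.219 without 1 array).

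Of the 106 genes named, 99 were called and 79 of these kept the call without every single array. These reversed: with the covariate, Or8b45 (0.083) and Nme7 (-0.25); with arrays scaled, Hspa8 (-0.0072), Fth1 (-0.32), Fabp1 (-0.43), Tpt1 (-0.17) and Or8b45 (0.098); in the shared range of spread, Egr3 (0.041), Socs1 (0.15), Fdps (-0.079), Nr0b2 (-0.27), Psmc4 (-0.0025), Rps4x (-0.15), Rpl6 (-0.24), Pnkd (-0.073), Fancd2osl1 (0.023), Ccdc107 (0.41), H4c14 (0.010) and Nme7 (-0.62); without the narrow sham arrays, Egr3 (0.020), Socs1 (0.13), Fdps (-0.095), Nr0b2 (-0.16), Rps4x (-0.13), Rpl6 (-0.21), Pnkd (-0.021), Fancd2osl1 (0.028), Ccdc107 (0.33), H4c14 (0.0013) and Nme7 (-0.59); with the covariate in those groups alone, Socs1 (0.050), Rps4x (-0.016), Rpl6 (-0.11), Ccdc107 (0.22) and Nme7 (-0.53). Amd1 reversed with array weights (0.19) and ranged up to 0.067 without single arrays. The cause was not tested. No paired analysis was possible because the array numbers are not shared between groups.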
